A study of Mus musculus with 6 samples.

Results

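The mitochondrial fatty acid oxidation enzymes described here are 10 genes, Cpt1a, Cpt1b, Cpt2, Acadm, Acadl, Acadvl, Hadha, Hadhb, Etfdh and Pdk4, taken by name from a table of 57180 genes. All 10 were found once each, and all 10 had the mean of at least 1 TPM over the libraries that a gene needed to be tested, as did 15446 genes in all. TPM states a gene's share of a library's transcripts, corrected for transcript length and scaled to the same total in each library. The RNA came from the inguinal white fat, a subcutaneous depot, of male wild-type mice, and was sequenced. The HFD group (3 libraries) received a high-fat diet, and the HEP group (3 libraries) the same kind of diet with 0.5% hesperidin, a flavonoid glycoside of citrus peel, both for 12 weeks. The labels give neither strain nor age, and do not say whether a library came from 1 animal, so p-values reflect the spread between libraries alone, which may be technical. All 6 libraries carry the same batch label.

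Fatty acids enter the mitochondrial matrix as carnitine esters. Cpt1a and Cpt1b, the liver and muscle forms of carnitine palmitoyltransferase on the outer membrane, make the ester, and Cpt2 on the inner membrane turns it back into the coenzyme A form. In each turn of beta-oxidation an acyl-CoA dehydrogenase takes the first step, Acadvl for very long, Acadl for long and Acadm for medium chains. Hadha and Hadhb form the trifunctional protein that carries out the remaining steps on long chains. Etfdh passes the electrons of the dehydrogenases to ubiquinone. Pdk4 is not an oxidation enzyme: it phosphorylates and inactivates pyruvate dehydrogenase, which spares glucose when fat is burned. White fat mostly stores fatty acids and oxidises few of them compared with brown fat, and many of these genes are known targets of the PPAR nuclear receptors.

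RefSeq (GRCm38.p6) gave the sequence before the transcription start of 9 of the 10 genes. The build behind the deposited table is not given in the sources used here, so genes were matched to these sequences by symbol. Those of the acyl-CoA dehydrogenases, whose transcripts kept nearly fixed proportions in every library, of the divergent pair Hadha and Hadhb, whose proportion did not, and of Pdk4, which followed another pattern, are given here, cut to the part that no exon of GENCODE M21 covers. They run 5′ to 3′ on the gene's strand, and capitals mark the nuclear receptor half-site AGGTCA, the GC box GGGCGG and the CCAAT box on either strand.
Acadm (chr3:153944644-153944893, minus strand): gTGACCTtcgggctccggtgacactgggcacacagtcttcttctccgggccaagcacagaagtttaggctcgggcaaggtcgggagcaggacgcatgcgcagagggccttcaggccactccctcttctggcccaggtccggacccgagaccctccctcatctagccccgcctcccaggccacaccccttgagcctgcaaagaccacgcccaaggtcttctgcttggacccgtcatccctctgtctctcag
Acadl (chr1:66863310-66863559, minus strand): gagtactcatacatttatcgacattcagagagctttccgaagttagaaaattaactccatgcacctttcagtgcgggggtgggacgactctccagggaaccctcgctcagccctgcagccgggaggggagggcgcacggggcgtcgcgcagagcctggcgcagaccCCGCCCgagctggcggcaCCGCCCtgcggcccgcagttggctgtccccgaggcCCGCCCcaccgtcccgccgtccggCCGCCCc
Acadvl (chr11:70015429-70015678, minus strand): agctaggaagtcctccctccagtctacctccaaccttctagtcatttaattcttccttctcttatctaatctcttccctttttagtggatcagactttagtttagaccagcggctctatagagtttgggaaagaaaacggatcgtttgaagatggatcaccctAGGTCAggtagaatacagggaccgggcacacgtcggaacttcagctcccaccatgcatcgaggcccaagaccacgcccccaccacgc
Hadhb (chr5:30155163-30155247, plus strand, between the annotated exons of Hadha and Hadhb): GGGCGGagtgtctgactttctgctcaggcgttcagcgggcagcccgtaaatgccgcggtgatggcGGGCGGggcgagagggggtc
Pdk4 (chr6:5496310-5496528, minus strand): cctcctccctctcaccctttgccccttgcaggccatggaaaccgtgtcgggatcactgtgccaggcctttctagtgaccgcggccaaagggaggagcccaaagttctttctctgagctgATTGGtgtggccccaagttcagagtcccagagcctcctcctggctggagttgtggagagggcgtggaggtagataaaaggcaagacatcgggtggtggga

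No motif searched was found before all of the dehydrogenase genes. In the 250 bases before the start, the half-site AGGTCA was found for 3 of 9 genes, Cpt1a, Acadm and Acadvl, and in 14.0% of all 32851 such windows. The half-site is part of TCAAGGTCA, the motif of the ERR receptors. AGGTCANAGGTCA, a direct repeat with a spacer of 1 base bound by PPAR and RXR, holds it too. Both longer forms were found for 0 of 9 (0.387% and 0.0335% of windows). Only exact matches were counted, and forms this rare cannot show by 0 of 9 whether inexact sites are present. The GC box was found for Cpt1a, Cpt2, Acadl, Hadha and Hadhb (5 of 9, against 32.7%), with 4 copies before Acadl and 0 before Acadm and Acadvl. The copy before Hadha is also 1 of those before Hadhb, on bases that their windows share. The windows of these 5 genes held 56.8% to 68.0% GC, against a median of 52.4% over all windows. CCAAT was found for Cpt1a, Etfdh and Pdk4 (3 of 9, against 33.8%). Hadha and Hadhb lie head to head: their RefSeq starts are 273 bases apart, and 228 bases are common to both upstream windows.

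The libraries differed in the transcripts of other tissues. Summed over 12 adipocyte markers (such as Adipoq, Plin1 and Fabp4, 0 of 12 listed at 0), the level was between 53180 and 67380 TPM in HFD. It was 41150, 64050 and 38930 TPM in replicates 1 to 3 of HEP. Brown and beige markers (10 genes) summed to 136 to 267 TPM in HFD and 105 to 359 TPM in HEP. The 359 TPM were those of HEP replicate 2, where Cox8b had 230 and Cox7a1 91.9 TPM, above each HFD value. In that library Cidea at 12.3, Otop1 at 3.11 and Ucp1 at 0.17 TPM were below each HFD value. The rest of this list lay within the HFD range there. All 7 brown and beige markers that were tested had a lower HEP mean of log2(TPM + 1), as did 41.4% of tested genes. Summed over 10 B cell and 10 T cell markers, HFD replicate 3 and HEP replicates 1 and 3 had 1234 to 2133 and 599.5 to 866 TPM, against at most 330 and 19.05 TPM in the other libraries. Skeletal muscle markers (17 genes, of which Myh4, Myh7 and Mb were listed at 0 in some library) summed to 16910 TPM in HEP replicate 2, to 1925 TPM in HEP replicate 1 and to between 66.5 and 805 TPM in the other 4. Liver markers (10 genes, of which Fga and Cps1 were listed at 0 in HEP replicate 1) summed to 1842 TPM in HFD replicate 1 and 2846 TPM in HEP replicate 2, against 117 TPM or less elsewhere. Ucp1, the defining gene of brown and beige fat, was at 0.05 to 1.73 TPM. In such bulk tissue, fewer cells of a type and less RNA per cell cannot be told apart. The part of this content in the results below was not tested beyond the values given.

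As TPM, 7 of the 10 genes (Cpt2, Acadm, Acadl, Acadvl, Hadha, Hadhb and Etfdh) had a lower mean in HEP and 3 (Cpt1a, Cpt1b and Pdk4) a higher one, but all 10 means were higher in HEP once each library was scaled to its adipocyte markers, and no difference passed the test under either. Of all tested genes 41.4% had a lower mean as TPM and 8.33% on the adipocyte scale. The median log2 fold change was -0.24 for the 10 genes and 0.07 for all tested genes, on the log2(TPM + 1) scale, which understates changes of low genes. In limma 0 of the 10 passed an adjusted p under 0.05 (0.0% of all genes tested) and 0 had an unadjusted p under 0.05 (1.81% of all genes). The smallest unadjusted p was 0.152 and the adjusted p lay between 0.879 and 0.910. The groups overlapped for each of the 10 genes, whereas 3.58% of tested genes had all HEP values below and 1.88% all above the HFD values.

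**Figure D1:**
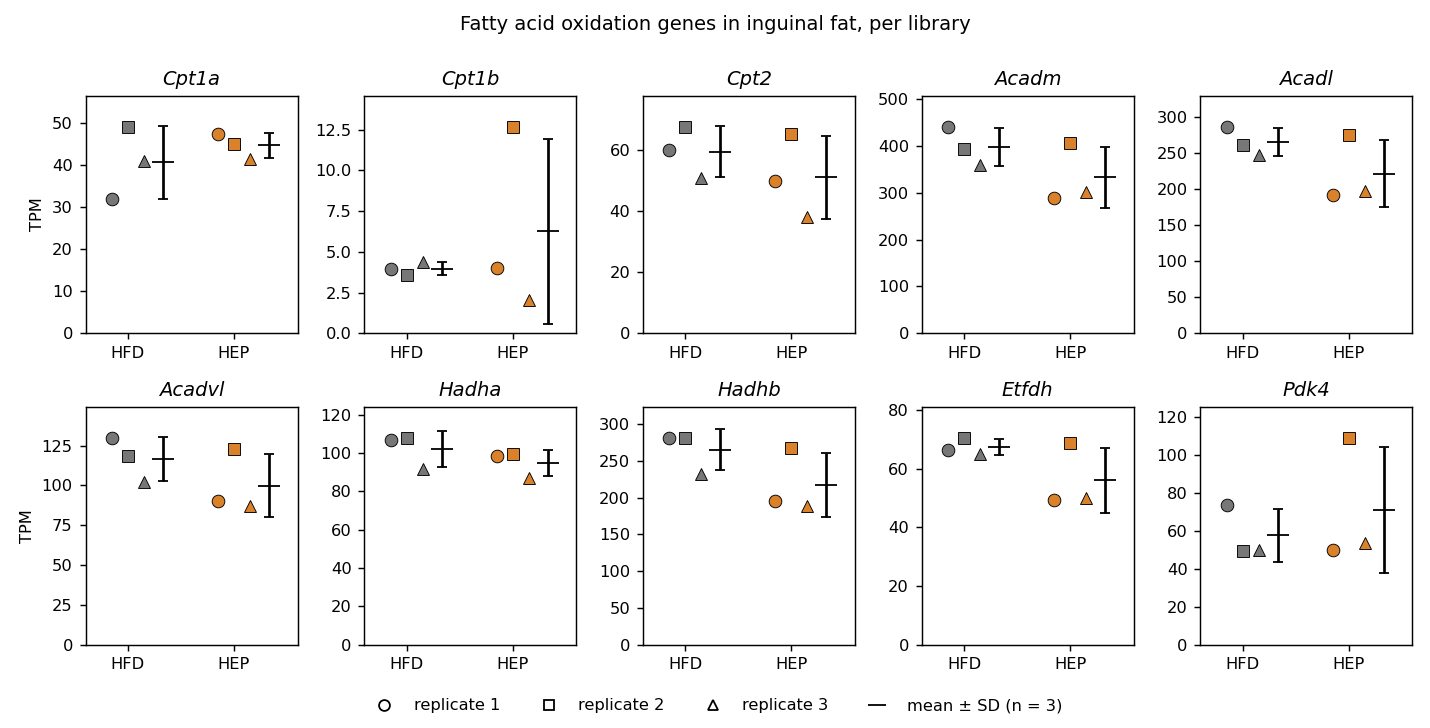
TPM (vertical axis, from 0) of the 10 genes in each of 3 HFD (grey) and 3 HEP (orange) libraries, with the group mean and SD (n = 3). HEP replicate 2 (orange square) sits among the HFD libraries for 8 genes and far above them for Cpt1b and Pdk4.

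Most of the genes had their lowest values in the same 2 libraries. For 6 of the 10, Cpt2, Acadm, Acadl, Acadvl, Hadhb and Etfdh, HEP replicates 1 and 3 were the lowest of the 6 libraries, as they were for 14.2% of tested genes. HEP replicate 2 lay within the range of the HFD libraries for 8 of the 10 (53.4% of tested genes), and above it for Cpt1b and Pdk4, as the highest of the 6 libraries (12.3% of tested genes). HEP replicates 1 and 3 are the HEP libraries rich in lymphocyte markers and lowest in adipocyte markers, and HEP replicate 2 is the one highest in muscle and liver markers. HFD replicate 3, also rich in lymphocyte markers (mean log2(TPM + 1) of 5.79, against 6.55 and 6.62 in HEP replicates 1 and 3), was the lowest HFD library for each of these 6 genes. Its Cpt2 value, 50.8 TPM, was close to the 49.8 TPM of HEP replicate 1, and its Hadha value, 91.4 TPM, was below the 98.2 TPM there. The coefficient of variation over the 6 libraries was 74.4% for Cpt1b, 37.0% for Pdk4 and 8.38% to 20.2% for the other 8 genes, beside a median of 25.9% over all tested genes. Of the 10 genes 8 had the larger SD in HEP, as did 71.1% of tested genes.

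Single libraries moved this contrast. Without HEP replicate 2 the median of the 10 genes was -0.41 and 9 of them were lower, and without HEP replicate 3 the median was -0.10. The medians of all tested genes were then 0.12 and 0.10. Without HEP replicate 2, Acadm, Acadl, Acadvl, Hadhb and Etfdh had an unadjusted limma p under 0.05 (5 of 10, against 23.8% of tested genes), with log2 fold changes from -0.46 to -0.39, but none passed (smallest adjusted p = 0.207 in limma). Without any other single library these 5 lay between -0.39 and -0.14, and Hadha between -0.18, if HFD replicate 3 was left out, and -0.04, if HEP replicate 3 was. Among the 3 libraries poor in lymphocyte markers, HEP replicate 2 differed from the 2 HFD libraries by a median of 0.01 (-0.08 for all tested genes, of which 62.8% were lower), with 4 of 10 genes lower. Among the 3 rich ones, HEP replicates 1 and 3 differed from HFD replicate 3 by a median of -0.25 (0.12 for all tested genes, of which 37.05% were lower), with 7 of 10 genes lower. With a covariate for lymphoid markers the median was -0.07, and with lymphoid and muscle covariates -0.11 with 9 of 10 lower, beside -0.0041 and -0.10 for all tested genes. With sample quality weights 6 of the 10 had an unadjusted p under 0.05 (32.9% of tested genes), with a muscle covariate 3 of 10 (10.9%) and without both libraries highest in liver markers 2 of 10 (11.5%), with smallest adjusted p-values of 0.119, 0.418 and 0.382 in limma. Each contrast within the poor or the rich libraries has an arm of 1 library, which was assumed to vary like the others, and these and the one without the liver-rich libraries were chosen after seeing the data.

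Of the carnitine palmitoyltransferases that admit fatty acids, Cpt1a (ENSMUSG00000024900) was the main Cpt1 form. It had 31.9, 49.3 and 41.0 TPM in replicates 1 to 3 of HFD, against 47.6, 45.2 and 41.6 TPM in those of HEP. The HEP values lay within the HFD range, whose lowest value was that of HFD replicate 1. The means were 40.7 ± 8.69 and 44.8 ± 3.03 TPM (SD, n = 3), with a log2 fold change of 0.15 ± 0.19 (SE, 95% interval -0.30 to 0.61, adjusted p = 0.879 in limma). Without HFD replicate 1 the log2 fold change was -0.01.

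Cpt1b (ENSMUSG00000078937), the form known from muscle and brown fat, was the lowest of the 10 and the most variable, at 3.96, 3.55 and 4.38 TPM under HFD, against 4.03, 12.7 and 2.05 TPM under HEP. HEP replicate 2 stood 3.20 times above the median of the other 5 libraries, and HEP replicate 3 was the lowest. These are also the libraries with the most and the least muscle marker transcripts, 16910 and 66.5 TPM. Between them the order differed. HEP replicate 1 had 1925 TPM of muscle markers with 4.03 TPM of Cpt1b, and HFD replicate 2 had 805 with 3.55. HFD replicates 1 and 3 had 213 and 104.5 TPM of muscle markers, with 3.96 and 4.38 TPM of Cpt1b. The part of muscle content in the Cpt1b values was not tested. The log2 fold change was 0.26 ± 0.54 (SE, interval -1.05 to 1.57), and without HEP replicate 2 it was -0.34. Of the summed TPM of Cpt1a and Cpt1b, Cpt1b made up 11.1%, 6.72% and 9.65% under HFD, against 7.81%, 21.9% and 4.70% in HEP. Cpt1c, the form known from brain, had 1.55 to 2.55 TPM and is not in this sum. The group means of this share, 9.14% ± 2.21 and 11.5% ± 9.17 (SD, n = 3), differed by less than the spread of HEP (two-sided exact permutation p = 0.90). A protein-coding gene on the same strand, Gm44502, overlaps Cpt1b, but it was listed at 0.53 TPM or less in each library.

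Cpt2 (ENSMUSG00000028607), the inner membrane enzyme that receives the carnitine esters, had 59.8, 67.5 and 50.8 TPM under HFD, against 49.8, 65.1 and 37.8 TPM under HEP. HEP replicates 3 and 1 were lowest, and replicate 2 lay near the top of the HFD range. Its log2 fold change was -0.24 ± 0.23 (SE, interval -0.80 to 0.32), which became -0.43 if HEP replicate 2 was left out, -0.15 if HFD replicate 2 was, and -0.05 if HEP replicate 3 was.

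Among the acyl-CoA dehydrogenases Acadm (ENSMUSG00000062908), for medium chains, was the most abundant of the 10 genes, with 441, 393 and 360 TPM under HFD, against 289, 407 and 302 TPM under HEP. HEP replicates 1 and 3 were below each HFD library and replicate 2 was between them. The means were 398 ± 40.8 and 333 ± 64.8 TPM (SD, n = 3), with a log2 fold change of -0.27 ± 0.19 (SE, interval -0.72 to 0.18, adjusted p = 0.879 in limma).

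Acadl (ENSMUSG00000026003), for long chains, repeated this order at 286, 261 and 247 TPM under HFD, against 191, 274 and 198 TPM under HEP. Acadvl (ENSMUSG00000018574), for very long chains, had 130, 118 and 102 TPM under HFD, against 90.1, 123 and 86.7 TPM under HEP. Their log2 fold changes were -0.28 ± 0.18 and -0.23 ± 0.19 (SE). Dvl2, which overlaps Acadvl on the opposite strand, had 4.17 to 9.71 TPM. Gm15793, a pseudogene within Acadl, had 1.13 to 4.01 TPM, and the labels do not say whether strand was kept.

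The proportions among the dehydrogenases varied less than their levels. Of the summed TPM of the 3, Acadm made up 50.6% to 51.5% in the 6 libraries, Acadl 33.4% to 34.9% and Acadvl 14.4% to 15.8%. These shares were 51.01% ± 0.39 in HFD and 50.9% ± 0.48 in HEP for Acadm, 34.03% ± 0.75 and 33.8% ± 0.31 for Acadl, and 14.96% ± 0.46 and 15.3% ± 0.51 for Acadvl (SD, n = 3). None of these differences was larger than the spread (two-sided exact permutation p of 0.70, 0.70 and 0.50), while the level of each gene varied 1.497 to 1.53 times between its lowest and highest library.

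Of the trifunctional protein, Hadhb (ENSMUSG00000059447), the beta subunit with the thiolase activity, behaved as the dehydrogenases did, and Hadha (ENSMUSG00000025745), the alpha subunit with the hydratase and dehydrogenase activities, less so. Hadhb had 281, 280 and 233 TPM under HFD, against 195, 267 and 188 TPM under HEP, a log2 fold change of -0.30 ± 0.19 (SE, interval -0.75 to 0.15), the lowest of the 10. Hadha had 107, 108 and 91.4 TPM under HFD, against 98.2, 99.3 and 87.0 TPM under HEP, a log2 fold change of -0.10 ± 0.14 (SE). Hadha was the steadiest of the 10, its highest library being 1.24 times the lowest.

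The ratio of Hadhb to Hadha transcripts was therefore not constant, although the 2 genes start head to head on the sequence shown above. It was 2.64, 2.60 and 2.55 under HFD, against 1.99, 2.69 and 2.16 in HEP. HEP replicates 1 and 3 stood below all HFD libraries and replicate 2 above them, so the groups overlapped. The means were 2.59 ± 0.05 and 2.28 ± 0.36 (SD, n = 3). In size the difference of -0.31 was smaller than the SD of HEP and larger than that of HFD. The two-sided exact permutation p was 0.40, where 3 libraries against 3 cannot give a p under 0.10. Over the 7 proportions compared, the adjusted p-values of these permutation tests were between 0.817 and 0.900. Garem2, which overlaps Hadha on the opposite strand, had at most 0.03 TPM.

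**Figure D2:**
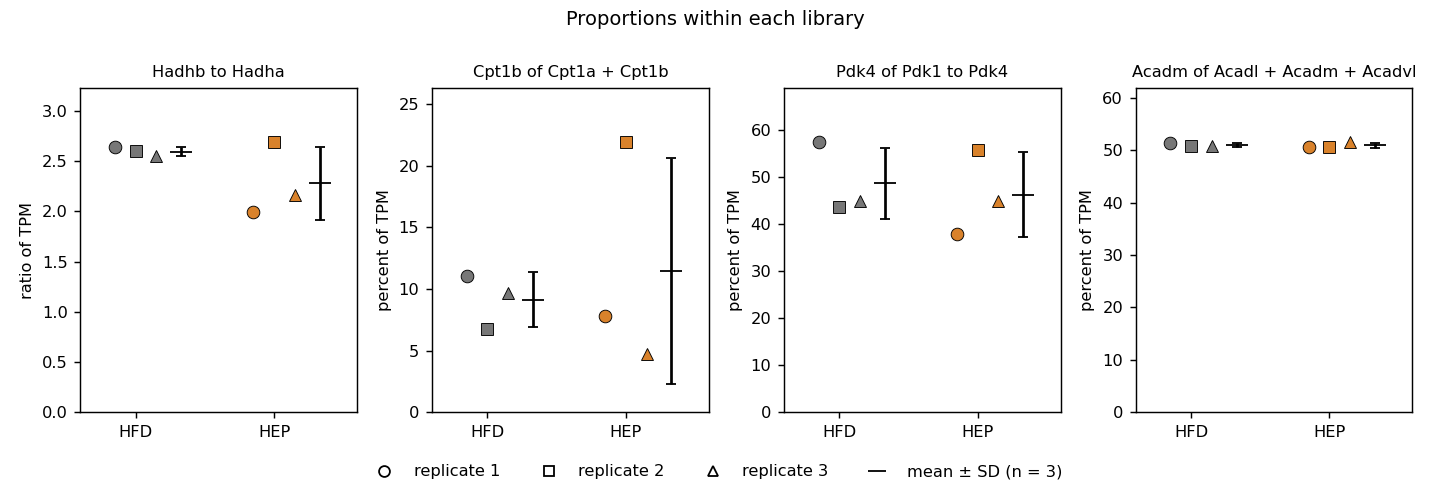
Proportions within each library, each from 0: the ratio of Hadhb to Hadha TPM, and Cpt1b as percent of Cpt1a and Cpt1b, Pdk4 of Pdk1 to Pdk4, and Acadm of the 3 dehydrogenases, for 3 HFD (grey) and 3 HEP (orange) libraries with mean and SD (n = 3). The Acadm share stays between 50.6% and 51.5%, while the Hadhb to Hadha ratio is 1.99 and 2.16 in HEP replicates 1 and 3 and 2.55 or more in the other libraries.

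Etfdh (ENSMUSG00000027809), the link from the dehydrogenases to the respiratory chain, had 66.5, 70.5 and 65.1 TPM under HFD, against 49.3, 68.8 and 50.2 TPM under HEP. The HFD libraries lay close together, HEP replicates 1 and 3 well below them and replicate 2 among them. The log2 fold change was -0.28 ± 0.17 (SE, interval -0.69 to 0.13), with the smallest unadjusted limma p of the 10 (adjusted p = 0.879). Relative to Etfa and Etfb, the electron carrier protein it oxidises, Etfdh was at 0.063, 0.073 and 0.082 under HFD, against 0.081, 0.068 and 0.083 in HEP, with no separation of the groups (two-sided exact permutation p = 0.60). 4930579G24Rik, which overlaps it on the opposite strand, had 2.85 to 4.80 TPM.

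Pdk4 (ENSMUSG00000019577), the kinase that turns pyruvate dehydrogenase off, followed a different order, with 73.4, 49.1 and 50.0 TPM under HFD, against 50.0, 109 and 53.7 TPM under HEP. HEP replicate 2 was highest and HFD replicate 1 next, while the other 4 libraries lay between 49.1 and 53.7 TPM across both groups. Those 2 libraries are the ones with the most liver marker transcripts, 2846 and 1842 TPM. HEP replicate 2 also had the most muscle marker transcripts, 16910 TPM. The means were 57.5 ± 13.8 and 70.9 ± 32.98 TPM (SD, n = 3), with a log2 fold change of 0.23 ± 0.34 (SE, interval -0.59 to 1.05). It was -0.12 without HEP replicate 2 and 0.06 without both liver-rich libraries, the latter chosen after seeing the data. With a muscle covariate it was 0.04, with a lymphoid covariate 0.51 and with both covariates 0.56. The part of muscle or liver content in the Pdk4 values was not tested.

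Pdk4 was the most abundant of its kinase family in 6 of 6 libraries: of the TPM of Pdk1 to Pdk4 it made up 57.4%, 43.7% and 45.0% under HFD, against 38.0%, 55.9% and 44.9% in HEP (two-sided exact permutation p = 0.60). Pdk1, the form known to be induced by hypoxia, had 12.9, 14.0 and 23.8 TPM under HFD, against 40.6, 12.1 and 34.3 TPM under HEP, and was high in the 3 libraries rich in lymphocyte markers. Pdk2, the widely expressed form, had 36.3, 41.5 and 27.9 TPM under HFD, against 31.4, 68.8 and 22.2 TPM under HEP, and was highest, as Pdk4 was, in HEP replicate 2. Pdk3 stayed between 5.04 and 9.64 TPM.

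Scaling to the adipocyte markers multiplies whole libraries, so it moved all genes of a library together. It raised the values of HEP replicates 1 and 3 and, slightly, those of HFD replicate 3. The values of HEP replicate 2 and of HFD replicates 1 and 2 were lowered. Division of each library by the geometric mean of its 12 adipocyte markers moved the median of all tested genes from 0.07 to 0.42 and that of the 10 genes from -0.24 to 0.16, so that 10 of 10 were higher in HEP, as all but 8.33% of tested genes were. Relative to the median of all genes, that of the 10 was -0.31 as TPM and -0.27 on the adipocyte scale, with 7 of 10 below it on both. Cpt2 then had 49.7, 51.9 and 52.3 under HFD, against 59.9, 54.9 and 56.6 in HEP, in adipocyte-scaled TPM, and was the only one of the 10 whose groups did not overlap (all HEP above in 5.94% of tested genes). Its coefficient of variation over the 6 libraries was 6.85% on this scale and 20.2% as TPM. For 8 of the 10 genes this variation was smaller on the adipocyte scale, as for 25.2% of tested genes. The exceptions were Cpt1a (30.3% against 14.6%) and Hadha (19.9% against 8.38%). Hadha had 88.7, 82.9 and 94.1 under HFD, against 118, 83.7 and 130 in HEP on this scale, high in HEP replicates 1 and 3. Pdk4 had 61.04, 37.8 and 51.5 under HFD, against 60.2, 91.8 and 80.4 in HEP, and its log2 fold change was 0.62 ± 0.26 (SE, interval -0.0004 to 1.25, adjusted p = 0.544 in limma). None of the 10 passed on this scale.

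**Figure D3:**
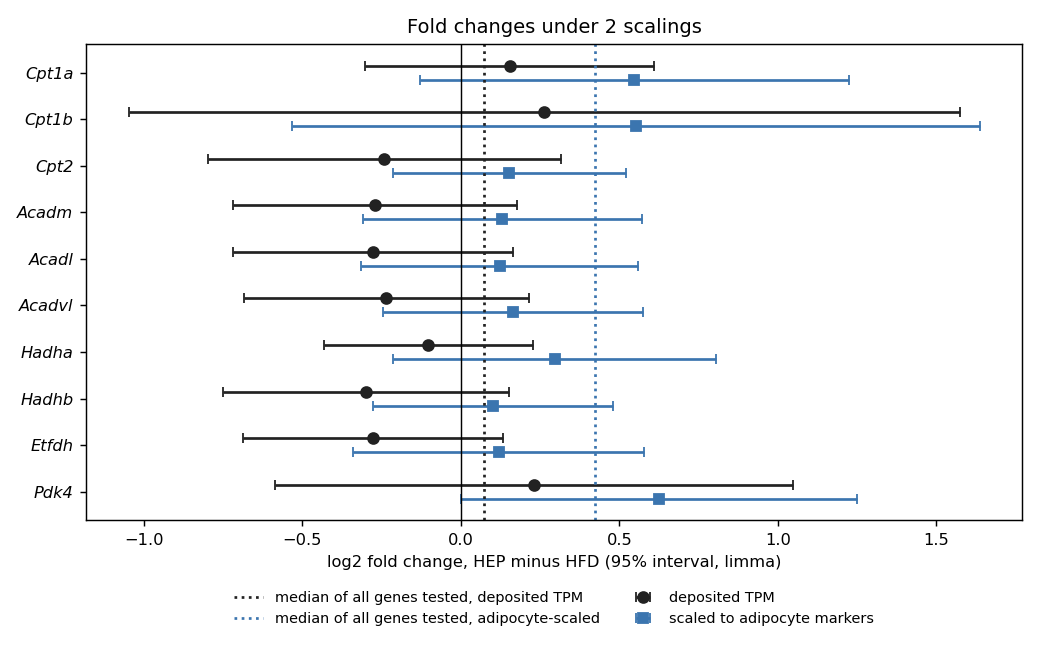
Log2 fold changes of HEP against HFD with 95% intervals from limma, for deposited TPM (black circles) and after scaling to 12 adipocyte markers (blue squares), with the medians of all tested genes as dotted lines. The 10 genes lie between -0.30 and 0.26 as TPM and between 0.10 and 0.62 after scaling, and each interval includes 0.

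By level the genes spanned from Acadm at 365 ± 60.2 TPM to Cpt1b at 5.11 ± 3.798 TPM (SD over 6 libraries). Acadm was above Acadl (243 ± 39.9 TPM) in 6 of 6 libraries by 1.504 times on average. Acadl and Hadhb (241 ± 41.9 TPM) did not differ beyond their spread. Both were above Acadvl (108 ± 17.9 TPM), which overlapped with Hadha (98.4 ± 8.24 TPM). Pdk4 (64.2 ± 23.8 TPM), Etfdh (61.7 ± 9.50 TPM), Cpt2 (55.1 ± 11.2 TPM) and Cpt1a (42.8 ± 6.23 TPM) followed, each overlapping with the next. Cpt1a stood 8.37 times above Cpt1b and was higher in 6 of 6 libraries.

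The other enzymes of the pathway lay below the median of all genes by a similar amount as the 10 genes on both scales (-0.27 as TPM, -0.24 with adipocyte scaling). Of 23 listed, 22 were tested, 14 with a lower and 8 with a higher HEP mean, at a median log2 fold change of -0.20 (0.07 for all tested genes, of which 41.4% were lower), and 0 passed in either direction. With adipocyte scaling 3 were lower and 19 higher, at a median of 0.18 beside 0.42 for all genes, of which 8.33% were lower. Acsl1, the main acyl-CoA synthetase of fat cells, had 653, 766 and 591 TPM under HFD, against 447, 562 and 437 TPM under HEP. Its HEP values were all below its HFD values, with a log2 fold change of -0.48 ± 0.18 (SE, adjusted p = 0.879 in limma), and it alone of the list had an unadjusted p under 0.05. Decr1, which prepares unsaturated chains, had 125 ± 13.4 and 96.9 ± 28.1 TPM (SD, n = 3), Echs1, the short-chain hydratase, 196 ± 24.6 and 153 ± 38.5 TPM, and Etfb, an electron carrier subunit, 565 ± 95.1 and 420 ± 136 TPM, each with overlapping groups.

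The pyruvate dehydrogenase complex that Pdk4 acts on, with its regulators and the pyruvate carrier, had 8 of 13 genes lower and 5 higher. The median was -0.22 and 0 passed, beside a median of 0.07 for all tested genes, of which 41.4% were lower. With adipocyte scaling 13 of 13 were higher at a median of 0.18, beside 0.42 for all tested genes, of which 8.33% were lower. Dld, its dihydrolipoamide dehydrogenase, had 133, 132 and 115 TPM under HFD, against 102, 106 and 98.6 TPM under HEP, without overlap, and a log2 fold change of -0.30 ± 0.13 (SE, adjusted p = 0.879 in limma). Pdhx, the binding protein of that enzyme, had 21.2 ± 1.14 and 17.1 ± 2.19 TPM. Pdhb, a subunit of the first enzyme, had 136 ± 3.30 and 117 ± 8.68 TPM, and neither showed overlap. Dld, Pdhx and Pdhb were the 3 of 13 with all HEP values below the HFD values, as 3.58% of tested genes were. Pdha1, the partner subunit of Pdhb, had 151 ± 5.61 and 126 ± 20.5 TPM with overlap.

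The genes known to control fatty acid oxidation were split. Of 16 listed, 15 were tested, 7 with a lower and 8 with a higher HEP mean, and 0 passed. The median was 0.04 (0.41 with adipocyte scaling, -0.02 with median-of-ratios scaling, -0.12 with quantile normalization). For all tested genes, of which 41.4% were lower as TPM, these medians were 0.07, 0.42, 0.02 and -0.06. Pparg, the receptor that defines fat cells, had 158 ± 25.4 TPM under HFD, against 110 ± 33.2 TPM under HEP with overlapping groups. Tfam, the mitochondrial transcription factor, had 32.9, 34.6 and 36.6 TPM under HFD, against 65.8, 31.4 and 46.7 TPM under HEP, Sirt1, a deacetylase, 11.8 ± 0.95 and 15.7 ± 5.05 TPM, and Esrra, a nuclear receptor of mitochondrial genes, 15.7 ± 0.76 and 18.5 ± 3.95 TPM. Ppargc1a, the coactivator of mitochondrial biogenesis, was named after its values were seen, at 0.97 to 2.01 TPM.

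The other known PPAR targets listed were split too. This list holds none of the 12 adipocyte markers, all 12 of which were lower in HEP as TPM. Of 16 listed, 15 were tested, 6 lower and 9 higher, and 0 passed. The median was 0.10 (0.50 with adipocyte scaling, -0.01 with quantile normalization), beside 0.07, 0.42 and -0.06 for all tested genes. Without HEP replicate 2 the median was -0.42 and 12 of 15 were lower, beside 0.12 for all tested genes, of which 40.6% were lower. Angptl4, an inhibitor of lipoprotein lipase, had 432, 390 and 311 TPM under HFD, against 240, 385 and 264 TPM under HEP, lowest in HEP replicates 1 and 3 as the dehydrogenases were. Ucp2, an uncoupling protein abundant in immune cells, had 101, 242 and 245 TPM under HFD, against 352, 170 and 346 TPM under HEP. Acot1, an acyl-CoA thioesterase, had 1.24 ± 1.12 and 2.75 ± 2.25 TPM (SD, n = 3).

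Genes with the most similar pattern were sought among 10358 other named genes that averaged 5 TPM or more, leaving out predicted genes and clones without a gene symbol, by the root mean square difference of centred log2(TPM + 1) over the 6 libraries. Nearest to the mean profile of the 10 genes were Pnp, Polr1has, Pigyl, Itsn1 and Park7, with differences of 0.03 to 0.05, where the profile itself had an SD of 0.21. Nearest to Pdk4 (SD 0.42) were Ahcy at 0.05, and Sephs2, Fahd1, Oxld1 and Coq8a at 0.13 to 0.19. Ahcy had 24.7, 16.1 and 17.8 TPM under HFD, against 17.0, 35.0 and 17.3 TPM under HEP, high in the same 2 libraries. Among the 5 genes nearest to Cpt1b (SD 0.65) were Nexn, Synm, Hspb6 and Pde4dip, at 0.12 to 0.23. Nexn had 15.3, 16.7 and 15.5 TPM under HFD, against 16.8, 41.5 and 9.73 TPM under HEP, with its highest and lowest values in the libraries of the highest and lowest Cpt1b.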

How the data were processed

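RNA was sequenced from inguinal fat in 3 HFD and 3 HEP libraries. TRIzol extracts went into TruSeq libraries, per the labels' protocols. The authors deposited TPM values per gene and library, with their group means. The tools listed, per the submitters' processing notes, are HISAT2, StringTie, RSEM, fastp and DESeq2, with neither version nor role. For build and annotation, the release is not given in the sources used here. Every column of the table summed to between 999999.71 and 1000000.7 TPM. TPM keeps no depth, so depth is unknown and no counting interval is given.

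The 15446 genes that averaged 1 TPM or more were compared on the log2(TPM + 1) scale, two-sided, by limma 3.58.1 under R 4.3.3 (intensity trend on), with Benjamini-Hochberg adjustment over all 15446 genes and a threshold of 0.05. Proportions within a library were compared by exact two-sided permutation tests (scipy 1.17.1). The fit was run on simulated data with independent noise for each gene and library. The planted effects were larger than the main log2 fold changes of the 10 genes. That run cannot tell how the fit handles shifts that many genes of a library share, or effects as small as these. The 10 genes, the lists (4 of pathways, 10 of cell types) and the tests were chosen with earlier results of these data known. All 10 genes were named, and of each pathway list up to 4 genes with the smallest p; a few genes that the rules named are not reported here. Lists are described by counts and medians. Markers of macrophages, endothelium, progenitors and epithelium served as checks of content: their medians were -0.09, -0.27, -0.21 and -0.29, and 0 passed. Brown and beige markers had a median of -0.35, B and T cell markers of 2.37 and 1.81, muscle of 2.39, liver of -0.35 and adipocyte markers of -0.41, and 0 passed. Overlapping genes were looked up in GENCODE M21, in which 51884 (90.7%) of the table's IDs were found.

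Alternatives were other pseudocounts (0.1, 0.01), filters, scalings, covariates for lymphoid and muscle content, robust fitting, sample weights, the replicate block and leaving out each library. Fits within libraries poor or rich in lymphocyte markers, without both libraries highest in liver markers, and with adipocyte scaling by 4 markers were added after seeing the data.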

Additional observations from a re-analysis of the deposited data

How the results depend on the processing

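Of 240 values for a gene under an alternative, 211 kept direction and 29 turned, and the adjusted p of the 10 genes was never under 0.119. Every alternative called 0 genes except leaving out HEP replicate 2, which called 1 of all tested genes, none of them among the 10. Leaving out 1 library moved the count of calls between 0 and 1 and the median of the 10 genes between -0.41 and -0.10. With adipocyte scaling the median was 0.16, and Cpt2 had 0.15, Acadm 0.13, Acadl 0.12, Acadvl 0.16, Hadha 0.30, Hadhb 0.10 and Etfdh 0.12. With adipocyte scaling by Adipoq, Plin1, Cidec and Fabp4 alone it was 0.15, and they had 0.14, 0.12, 0.11, 0.16, 0.29, 0.0922 and 0.11. All 12 markers behind the scale had a lower HEP mean. Other turns were of Cpt1b with the muscle covariate (-0.23), with the lymphoid and muscle covariates together (-0.091), with sample weights (-0.45), without HEP replicate 2 (-0.34), without both liver-rich libraries (-0.34) and within the lymphocyte-rich libraries (-0.46). Cpt1a turned with both covariates (-0.12), without HFD replicate 1 (-0.0068) and without both liver-rich libraries (-0.0143). Pdk4 turned with sample weights (-0.0308) and without HEP replicate 2 (-0.12). Within the lymphocyte-poor libraries the median was 0.0054, with Cpt2 at 0.0355, Acadl at 0.0032 and Etfdh at 0.0076, and Hadha was at 0.016 within the rich ones. Leaving out 1 library put Cpt1a between -0.0068 and 0.30, Cpt1b between -0.34 and 0.74, and Pdk4 between -0.12 and 0.43. The cause of these turns was not tested.

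Leaving out 1 library moved the difference in the Cpt1b share between -2.89 and 5.72 percentage points, the Pdk4 share between -7.25 and 1.92, the Acadl share between -0.57 and 0.16, the Acadm share between -0.35 and 0.14, the Acadvl share between 0.07 and 0.58, the Hadhb to Hadha ratio between -0.52 and -0.17 and the Etfdh ratio between -0.00058 and 0.0093. Whether replicate numbers pair the libraries cannot be told from these values. Same-numbered deviations from the group means correlated at -0.36, 0.37 and 0.65, and differently numbered ones at between -0.71 and 0.50. With the replicate block 0 genes were called, the median was -0.24 and the Hadhb to Hadha difference was -0.31 (exact paired p = 0.50, where 3 pairs cannot give a p under 0.25). With the filter and scale of the report, the number of genes with an unadjusted p under 0.05 was 279, and it was between 121 (without HFD replicate 2) and 5079 (sample weights) over the alternatives. TPM keeps no depth, so what depth limits is unknown.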
